A study of Drosophila melanogaster with 13 samples.

Results

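The genes described here set wildtype larvae apart from all *roX* mutant larvae together. They were chosen by comparing the 3 wildtype libraries with the 10 libraries of the *roX1*, *roX2* and *roX1 roX2* mutants and keeping the genes that differed in the same direction in each mutant genotype. Of 13975 genes tested, 146 met this rule, and they are called shared genes below. The rule set aside 8 genes, namely *roX1* and *roX2* themselves, *w*, *CG3588*, *CG14416*, *CG14417*, *CG14418* and *CG14419*. RNA-seq of polyadenylated RNA was made from first instar male larvae of *Drosophila melanogaster*, to learn what each *roX* RNA does for gene expression.

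Per the labels, the wildtype mothers carried *y1* and *w1118* (3 libraries) and the *roX1* mutant carried *y1*, *w1118* and the deletion *roX1ex6* (4 libraries). The *roX2* mutant carried *y1*, *cho2*, *v1* and the deletion *roX2 9-4* (3 libraries), and the *roX1 roX2* mutant carried *y1*, *w1118* and both deletions (3 libraries). The X chromosome of the double mutant was a recombinant of those of the single mutants, which the methods list with *v1* as well. In every genotype the fathers carried the balancer *FM7i* with a GFP transgene. Sons without GFP were pooled, so all sons had an X chromosome from the mother. Their Y chromosome and a set of autosomes came from the same kind of father. The methods list the mothers of the double mutant, and no other mothers, with the same balancer as their other X chromosome. The genotypes were not isogenic, and wildtype was 1 stock. A difference that the mutant stocks share by origin, a difference that the wildtype stock alone carries, and an effect common to the loss of either *roX* RNA cannot be told apart in this design.

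Male flies carry a single X chromosome and raise its transcription through the MSL complex, a set of proteins with the noncoding RNAs *roX1* and *roX2*. Either RNA alone is enough for males to live, and the loss of both removes most of the complex from the X chromosome. Laboratory stocks also differ at many loci without any relation to *roX*. Transposon insertions, deletions and copy number changes that move the expression of single genes are common among them, and detoxification enzymes, immune peptides and taste receptors are gene families that vary much between fly stocks.

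The libraries held between 45620194 and 83954893 gene counts (median 61966067). *roX1* RNA was at 971 to 1131 CPM (gene counts scaled to library size with TMM factors) in wildtype and at 0.769 to 4.06 CPM in the 7 libraries labelled with its deletion, and *roX2* RNA was at 18.5 to 25.3 CPM in wildtype and at 0 to 0.0451 CPM in the 6 libraries labelled with its deletion. On the first principal component of autosomal genes, which held 54.5% of the variance, wildtype 1, *roX1* 1, *roX1* 2 and *roX2* 4 lay apart from the other 9 libraries. Within the other 9 alone, the rule gave 191 genes, of which 79 were among the 146. Neither the labels nor the methods name a date or batch for these groups of libraries.

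Wildtype was marked mainly by genes that were higher in it than in the mutants. In the comparison of wildtype with the mean of the 3 mutant genotypes, 36 genes were higher in the mutants, which is 0.258% of those tested, and 110 were lower, which is 0.788% (adjusted p under 0.05 and 1 sign in each mutant). The median shared gene differed 2.67-fold among the rises and 2.31-fold among the falls. These medians follow from how the genes were chosen. At an unadjusted p under 0.05 the comparison had 1851 genes. In 105 of the 146, the 10 mutant libraries lay wholly on 1 side of the 3 wildtype libraries (27 above and 78 below). Over all genes tested, 0.931% had all mutant libraries above and 1.13% had all below. The count of 146 leaned on the double mutant and on single libraries. It was 35 when the *roX1 roX2* mutant was left out, 66, 78 and 51 without wildtype 1, 3 and 4, 84, 89 and 96 without *roX1* 1, 3 and 4, and 85, 68 and 72 without *roX1 roX2* 2, 3 and 4. The count of 105 moved the same way, to between 46 (without wildtype 4) and 162 (without *roX2* 3).

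The 3 mutants did not change alike in size. Of the 146 shared genes, 57 had a log2 fold change of at least 1 in each mutant (12 rises and 45 falls), while 12 had an absolute log2 fold change under 0.2 in at least 1 mutant. The fold changes of the 3 mutants lay within 0.5 of each other on the log2 scale for 36 genes. A test of the mutants against each other called 67 of the 146 (45.9%), against 17.4% of all genes tested. The *roX1 roX2* mutant was farthest from wildtype for 54 of the 110 falls and 18 of the 36 rises. The 3 comparisons share the wildtype libraries, so agreement in sign between them is no independent evidence. Over all genes tested, 38.3% had 1 sign in all 3.

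**Figure D1:**
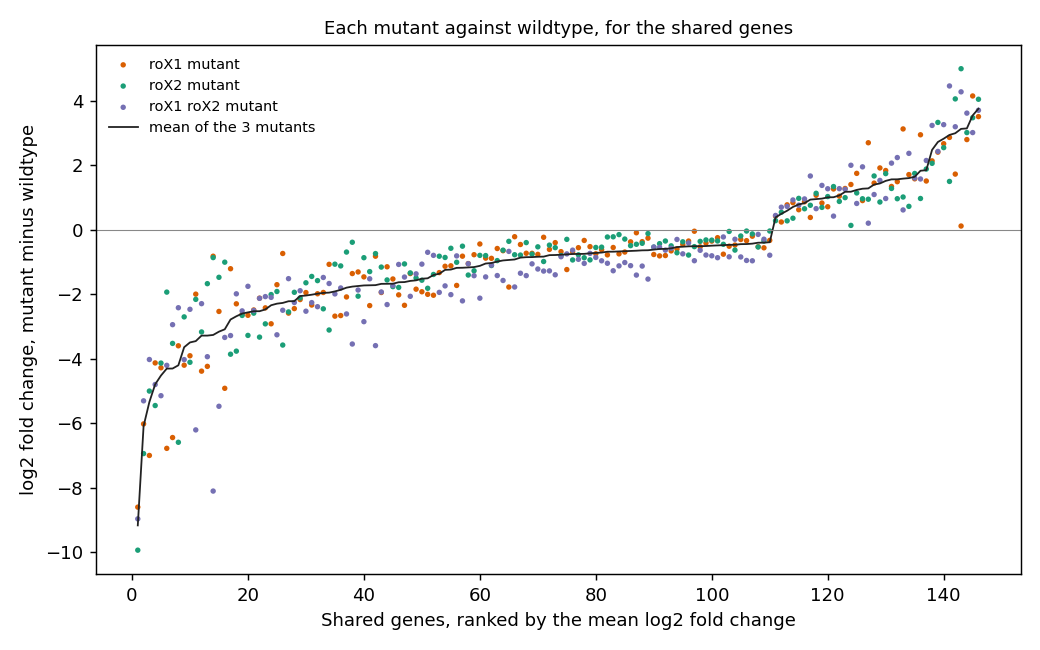
Log2 fold change against wildtype of the 146 shared genes (vertical axis), ranked by the mean of the 3 mutants (horizontal axis, black line), with a point for each mutant. The 110 falls lie to the left, the points of the 3 mutants are often far apart, and the double mutant is the lowest point for 54 of the falls.

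In all, 16 genes differed from wildtype in each mutant when each was tested alone, which is 0.115% of the genes tested. Lower in all 3 mutants were *lncRNA:CR44660*, *lncRNA:CR45284*, *BomS4*, *Crg-1*, *dpr1*, FBgn0010549 (an ABC transporter gene), *CG10353*, *CG6125* and *hzg*. Higher in all 3 were *CG42704*, *Cyp4d1*, *swaPsi*, *Cyp4p2*, *SkpE*, *CG2269* and *Cyp28a5*. In all 16, the wildtype and mutant libraries did not overlap. The single comparisons called 185 genes for the *roX1* mutant, 49 for the *roX2* mutant and 1269 for the *roX1 roX2* mutant. The count was 10 without wildtype 3 and 9 without wildtype 4.

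The largest fall and the fall with the smallest adjusted p came from the same locus on chromosome 2R. *dpr1* (FBgn0040726, 20698483 to 20750442 on the plus strand, BDGP6.54) codes for an immunoglobulin family protein of the neuronal surface that is known for its role in the taste response to salt. It was at 88.3, 152 and 136 CPM in wildtype 1, 3 and 4. The 10 mutant libraries ranged from 26.4 to 36.3 CPM with a median of 29.3. The mutants therefore formed a tight band well below the wildtype level, and the wildtype libraries were more spread out than all mutants. The log2 fold change was -2.16 in the *roX1*, -2.11 in the *roX2* and -1.89 in the *roX1 roX2* mutant (mean -2.05, SE 0.12, adjusted p = 6.1e-06). The test among the mutants did not call it (adjusted p = 0.365).

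*lncRNA:CR44660* (FBgn0265871, 20722595 to 20723095 on the plus strand) lies within an intron of *dpr1* on the same strand and shares no exon bases with it. The 3 wildtype libraries held 416, 729 and 486 counts (5.15, 10.5 and 8.05 CPM), and the 10 mutant libraries held 8 counts in all, at most 3 in a library. The ratio of the summed counts per effective library size was 583 (95% exact interval 295 to 1352, for counting error only), and the fitted mean log2 fold change, which depends on the prior count for so few counts, was -9.16 (adjusted p = 1.4e-05). The noncoding RNA was thus near 0 in each mutant, where *dpr1* kept 28.0 to 33.9 CPM as the mean of a genotype. Reads of an intronic RNA cannot be told from those of unspliced RNA of its host gene. *CG13442*, on the other strand of the same stretch, had 0.681, 0.795 and 0.729 CPM in wildtype and a median of 0.0384 CPM in the mutants, but *roX2* 3 stood at 0.839 CPM, and the gene did not pass (adjusted p = 0.173).

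*lncRNA:CR45284* (FBgn0266822 on 2L, 14032006 to 14038306) had 243, 214 and 82 counts in wildtype and 25 counts over the 10 mutant libraries. Its ratio of summed counts was 61.6 (95% exact interval 41.3 to 96.1). *BomS4* codes for a short Bomanin, a secreted peptide that the Toll pathway induces upon infection, and lies on 2R from 18384567 to 18384911. It was at 2.51, 0.997 and 0.927 CPM in wildtype and at 0.0172 to 0.164 CPM in the mutants (mean log2 fold change -4.52, SE 0.46, adjusted p = 0.00047). Even the highest mutant library was far below the lowest wildtype library. The gene *lncRNA:CR42736*, 6371 bp from *BomS4* and named after its values were seen, was also shared and lower in the mutants. No other Bomanin gene of this stretch passed. *BomS6* was at 2.44, 1.46 and 2.27 CPM in wildtype and 0 to 1.34 CPM in the mutants (mean log2 fold change -1.56, adjusted p = 0.343), and *BomBc2*, which overlaps *BomS4* by 88 exon bases on the opposite strand, had means of 0.251 CPM in wildtype and 0.116, 0.0300 and 0.0252 CPM in the *roX1*, *roX2* and *roX1 roX2* mutants (-2.43, adjusted p = 0.197). *BomS1*, *BomS2*, *BomS3* and *BomS5* had mean log2 fold changes of -0.65, 0.82, -0.87 and 0.42 with adjusted p of 0.880, 0.840, 0.693 and 0.944, and the library *roX1* 4 had the highest value of *BomS1*, *BomS2*, *BomS3* and *BomS5*. Reads of *BomS4* and *BomBc2* cannot be told apart where they overlap.

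*Crg-1*, a forkhead family gene under circadian control, changed by nearly the same amount in each mutant. It was at 3.25, 4.83 and 3.79 CPM in wildtype and at 0.496 to 0.978 CPM with a median of 0.649 in the mutants. The log2 fold changes were -2.49, -2.58 and -2.50 in the *roX1*, *roX2* and *roX1 roX2* mutants (mean SE 0.21, adjusted p = 9.8e-05). *Crg-1* starts at 3793223 on the X chromosome, in the region that also holds *roX1* (3857230 to 3862697). Its means were 0.705, 0.658 and 0.697 CPM in the *roX1*, *roX2* and *roX1 roX2* mutants, and the cause of the fall was not tested. *hzg*, which codes for a phosphatase with a part in segment polarity of the embryo, was at 139, 123 and 112 CPM in wildtype and 67.3 to 81.3 CPM in the mutants. Its mean log2 fold change of -0.77 (SE 0.08, adjusted p = 6.0e-04) was the smallest among the 9 falls.

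The other falls of this group differed among the mutants. FBgn0010549, the ABC transporter gene on 2R from 9390165 to 9395281, was at 147, 137 and 137 CPM in wildtype, with genotype means of 27.7 in the *roX1*, 67.4 in the *roX2* and 50.8 CPM in the *roX1 roX2* mutant. *CG10353*, an X-linked gene of the anoctamin family of membrane proteins, was at 211, 266 and 238 CPM in wildtype. Both single mutants had it at similar means of 92.9 and 94.3 CPM, and the double mutant was lower at 57.0 CPM (log2 fold changes -1.36, -1.34 and -2.06). *CG6125* on 3R was at 53.0, 49.2 and 54.7 CPM in wildtype, with means of 23.9, 28.8 and 15.7 CPM in the *roX1*, *roX2* and *roX1 roX2* mutants. The antisense gene *asRNA:CR46058* overlaps 609 exon bases of *CG6125*, and reads of both genes cannot be told apart in that overlap.

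Among the 7 genes higher in every mutant tested alone, *Cyp4d1* had the smallest adjusted p. It was at 1.94, 1.69 and 1.56 CPM in wildtype and at 10.3 to 36.5 CPM with a median of 20.5 in the mutants. The order of the genotype means was *roX1* 30.7, *roX2* 19.2 and *roX1 roX2* 14.0 CPM, and the log2 fold changes were 4.15, 3.47 and 3.01 (mean 3.55, SE 0.20, adjusted p = 5.8e-06). The mutants differed among themselves (adjusted p = 0.0058). *CG2269* on 2R (10085169 to 10096416) was the most abundant gene of this group, at 166, 168 and 137 CPM in wildtype and 267 to 391 CPM in the mutants (mean log2 fold change 1.06, SE 0.12, adjusted p = 8.1e-04).

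*swaPsi*, a pseudogene beside *swa* on the X chromosome, was at 0.0991, 0.376 and 0.232 CPM in wildtype and 1.05 to 3.41 CPM in the mutants (mean log2 fold change 2.72, SE 0.39, adjusted p = 0.0065). Its parent *swa*, known for the placement of *bicoid* RNA in the egg, was at 1.24, 2.59 and 0.331 CPM in wildtype and 0.204 to 0.877 CPM in the mutants, so the 2 near copies had opposite signs. *swa* itself did not pass (adjusted p = 0.0736). Reads that fit both copies equally were not counted, which may affect the levels of both. *SkpE*, a gene like those for the Skp subunit of SCF ubiquitin ligases, was at 0.656, 0.636 and 0.513 CPM in wildtype and 1.13 to 2.77 CPM in the mutants (mean log2 fold change 1.40, adjusted p = 0.0292). The call for *SkpE* was lost without wildtype 1, 3 or 4, without *roX1* 1 or 3 and without each library of the double mutant (adjusted p up to 0.135). *CG42704* had 1 count in each wildtype library and 133 counts in the mutants, a ratio of summed counts of 15.5 (95% exact interval 5.2 to 76.2), and was not called without wildtype 1 (adjusted p = 0.0591) or wildtype 4 (adjusted p = 0.0525).

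**Figure D2:**
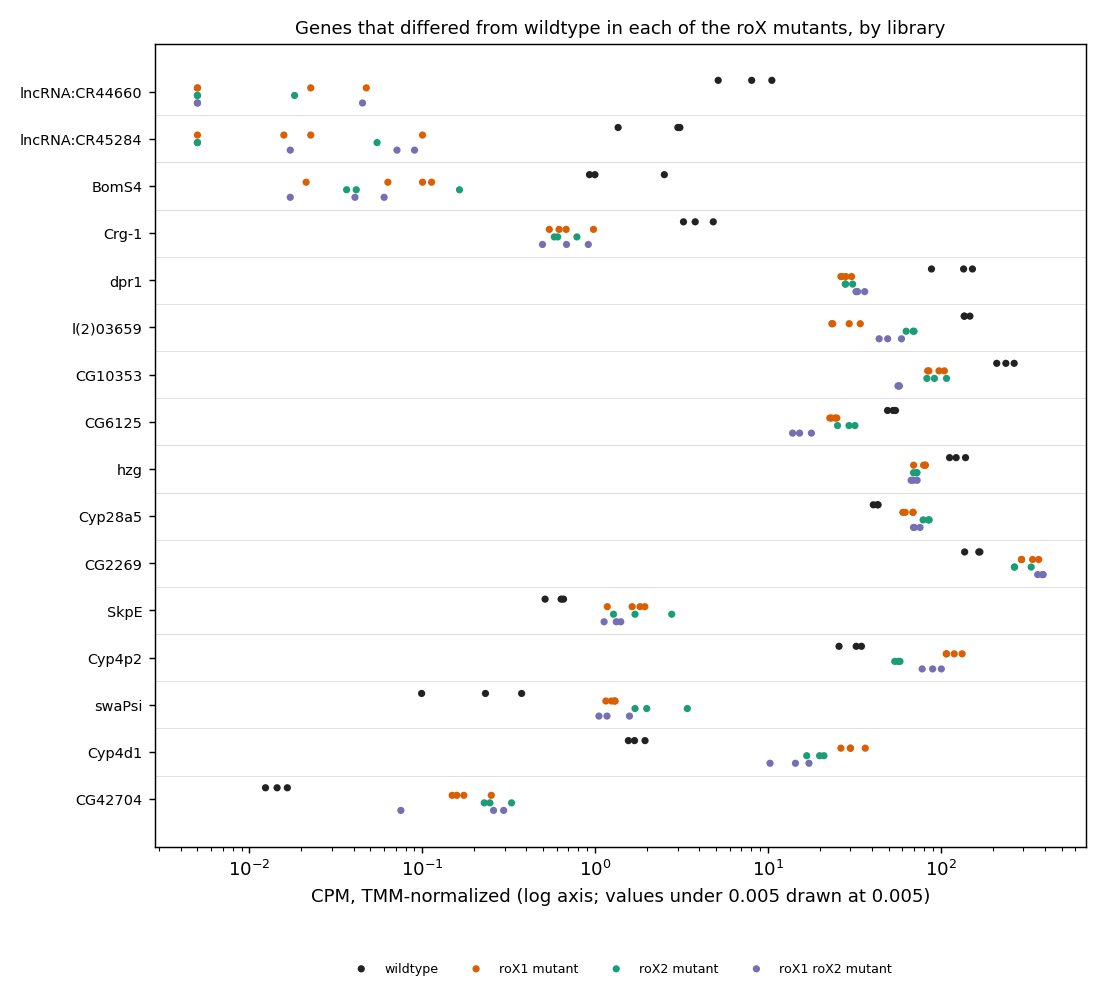
Expression in each library (CPM on a log axis) of the 16 genes that differed from wildtype in each mutant tested alone, with a point for each library coloured by genotype. Black wildtype points lie to the right of all mutant points for the 9 upper genes, from *lncRNA:CR44660* to *hzg*, and to the left for the 7 lower genes, from *Cyp28a5* to *CG42704*.

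Cytochrome P450 genes, whose products oxidize hormones, fatty acids and foreign compounds, had more shared genes than any other protein family listed. Of 81 genes tested on this list, 3 were higher in the mutants (*Cyp4d1*, *Cyp4p2* and *Cyp28a5*) and 4 were lower (*Cyp6a2*, *Cyp6a14*, *Cyp6a23* and *Cyp6a9*). This is a share of 8.64% against 1.05% of all genes tested. The list was taken by symbol and also holds the cyclophilin gene *Cyp40*, which was not shared. The median log2 fold change of the family was 0.00, beside 0.02 for all genes, so the family did not move to 1 side. *Cyp4p2* on 2R lies within an intron of *hig*, on the opposite strand. It was at 25.8, 34.8 and 32.4 CPM in wildtype and 54.1 to 133 CPM in the mutants, with means of 117 in the *roX1*, 56.3 in the *roX2* and 89.5 CPM in the *roX1 roX2* mutant (mean log2 fold change 1.44, SE 0.12, adjusted p = 1.3e-04). *Cyp28a5* on 2L changed least of the 3 rises, at 42.9, 40.7 and 43.4 CPM in wildtype against 60.3 to 85.7 CPM in the mutants (mean log2 fold change 0.79, SE 0.08, adjusted p = 4.7e-04).

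The 4 P450 genes with lower expression in the mutants all belong to the *Cyp6a* group and were named after their values were seen. *Cyp6a2*, known for its induction by foreign compounds, was at 222, 69.6 and 85.6 CPM in wildtype and 17.1 to 69.1 CPM in the mutants, so wildtype 1 was far above the others and the highest mutant library lay just under the lowest wildtype library. *Cyp6a14* had the same arrangement with 16.3, 7.34 and 7.80 CPM in wildtype and 3.55 to 6.86 CPM in the mutants. *Cyp6a23* was at 75.4, 40.3 and 51.2 CPM in wildtype and 22.3 to 37.5 CPM in the mutants. *Cyp6a9*, 1702 bp from *Cyp6a23*, was at 70.2, 58.2 and 61.3 CPM in wildtype and 32.9 to 59.2 CPM in the mutants, where the groups overlap. Of these 4 genes, the single comparison with the *roX1 roX2* mutant called *Cyp6a2* and *Cyp6a23*, that with the *roX1* mutant called *Cyp6a9*, and none called *Cyp6a14* (adjusted p = 0.104, 0.128 and 0.062). *Cyp6a8*, *Cyp6a19*, *Cyp6a20* and *Cyp6a22* from the same region did not pass (adjusted p = 0.535, 0.688, 0.510 and 0.958). *Cyp6a17* of the same group did not pass either (adjusted p = 0.288). Its means were 62.7 CPM in wildtype and 51.9, 113 and 84.6 CPM in the *roX1*, *roX2* and *roX1 roX2* mutants. Reads that fit several genes of the group equally were not counted, which may affect their levels. *Cyp6a9* and *Cyp6a19* share 397 exon bases on opposite strands, where their reads cannot be told apart.

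**Figure D3:**
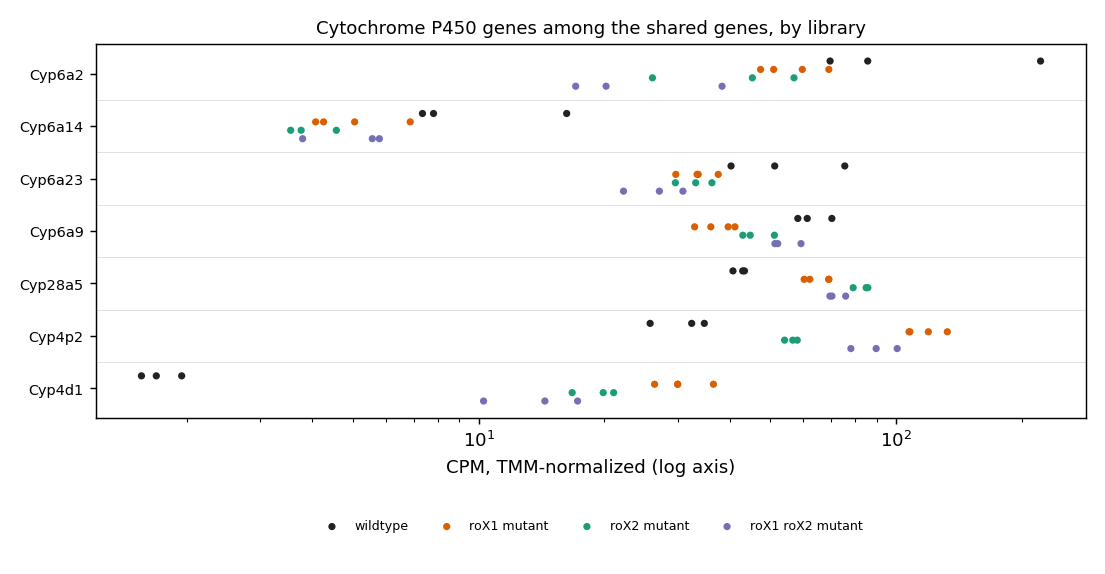
Expression in each library (CPM on a log axis) of the 7 cytochrome P450 genes among the shared genes, with a point for each library coloured by genotype. Wildtype lies highest for *Cyp6a2*, *Cyp6a14* and *Cyp6a23*, overlaps the double mutant for *Cyp6a9*, and lies lowest for *Cyp28a5*, *Cyp4p2* and *Cyp4d1*.

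Of 134 chemosensory receptor genes tested, 3 were shared, all of them falls (2.24%, against 1.05% of all genes tested). With DESeq2 there were 2 rises and 3 falls on this list. *Gr8a*, a gustatory receptor for the plant toxin L-canavanine, was at 0.954, 1.66 and 1.04 CPM in wildtype. It had 2 counts in all in the 4 libraries of the *roX1* mutant, 0.249 to 0.410 CPM in the *roX2* mutant and 0.0150 to 0.121 CPM in the *roX1 roX2* mutant, and the mutants differed (adjusted p = 0.0041). *Gr68a*, a gustatory receptor gene studied in male courtship, was at 0.780, 1.23 and 1.28 CPM in wildtype and 0.0158 to 0.362 CPM in the mutants (mean log2 fold change -3.28, SE 0.51, adjusted p = 0.0112, or 0.0637 without wildtype 4). *Gr68a* lies within an intron of *loaf*, on the opposite strand. *Ir51a*, annotated as a pseudogene, was at 1.60, 1.24 and 1.14 CPM in wildtype and 0.228 to 0.902 CPM in the mutants (mean log2 fold change -1.50, adjusted p = 0.0104, or 0.0591 without wildtype 1).

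Noncoding RNAs were represented about as often as genes in general. Of 1025 genes on the list of long noncoding RNAs, 3 were higher and 7 were lower (0.976%, against 1.05% of all genes), and 2 of these 10 are annotated as pseudogenes. *CR43276*, a pseudogene on 2R, was at 2.03, 1.91 and 2.57 CPM in wildtype and fell to means of 1.03, 0.248 and 0.683 CPM in the *roX1*, *roX2* and *roX1 roX2* mutants (mean log2 fold change -1.95, adjusted p = 8.1e-04). *lncRNA:CR44640* was at 0.297, 0.173 and 0.265 CPM in wildtype and 0.493 to 1.06 CPM in the mutants, but its call (adjusted p = 0.0431) held in 5 of 22 alternatives. Of 242 antisense RNAs, 1 was shared. It was *asRNA:CR45600*, at 7.78, 7.67 and 6.81 CPM in wildtype and 7.47 to 15.5 CPM in the mutants (mean log2 fold change 0.71, adjusted p = 0.0437), called in 4 of 22 alternatives. Its levels overlapped, and *roX2* 2 lay within the wildtype range.

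Further large falls were found in genes of several kinds. *antr*, a gene of the male reproductive system that is needed for responses of the mated female, was at 1.44, 0.925 and 0.662 CPM in wildtype and 0.0492 to 0.633 CPM in the mutants (mean log2 fold change -2.78, SE 0.28, adjusted p = 4.6e-04). *CG14852* was at 4.01, 23.2 and 21.8 CPM in wildtype and 0 to 2.06 CPM in the mutants (mean log2 fold change -4.79, adjusted p = 0.0168), and was not called without wildtype 3 (adjusted p = 0.0620), wildtype 4 (0.0716) or *roX1 roX2* 3 or 4 (0.0549 and 0.0538). *CG11300* was at 71.9, 124 and 175 CPM in wildtype and 3.03 to 65.8 CPM in the mutants (adjusted p = 0.0431), with a call that held in 10 of 22 alternatives. *CG32750* was at 114, 11.2 and 17.0 CPM in wildtype and 0.574 to 10.7 CPM in the mutants. Wildtype 1 set its size, since the mean log2 fold change of -3.64 (adjusted p = 0.0232) became -1.92 (adjusted p = 0.205) without it. *Fbp1*, a fat body gene of late larvae, was close to 0 everywhere with 32, 6 and 5 counts in wildtype and 11 counts over the mutants, and its call (adjusted p = 0.0431) held in 5 of 21 alternatives.

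Further rises were mostly genes of low expression in wildtype. *mthl8*, a Methuselah-like receptor gene, was at 19.9, 16.8 and 15.3 CPM in wildtype and 25.4 to 99.7 CPM in the mutants, with a mean of 81.7 CPM in the double mutant (mean log2 fold change 1.56, SE 0.17, adjusted p = 8.1e-04). *TTLL6B*, of the family of enzymes that add glutamate chains to tubulin, was at 0.991, 1.39 and 1.62 CPM in wildtype and 1.94 to 6.27 CPM in the mutants (mean log2 fold change 1.27, adjusted p = 0.0229). *CG18788* was at 0.0743, 0.0578 and 0.149 CPM in wildtype and 0.249 to 1.12 CPM in the mutants (mean log2 fold change 2.82, adjusted p = 0.0292). *CG6749* was at 0.384, 0.275 and 0.315 CPM in wildtype and 0.622 to 1.71 CPM in the mutants (1.56, adjusted p = 0.0158), and *CG5783* at 0.941, 1.36 and 1.46 CPM in wildtype and 1.63 to 5.66 CPM in the mutants (1.52, adjusted p = 0.0345). In these 5 genes the groups did not overlap. Without wildtype 3 the adjusted p was 0.104 for *CG18788*, 0.0690 for *CG6749*, 0.102 for *CG5783* and 0.0821 for *TTLL6B*, and without wildtype 4 it was 0.0661, 0.0846, 0.104 and 0.0602. Without wildtype 1 it was 0.113 for *CG18788*, 0.145 for *CG5783* and 0.0994 for *TTLL6B*. Leaving out *roX1 roX2* 3 also ended the call of *TTLL6B* (0.0534) and *CG5783* (0.0763), *roX1 roX2* 4 that of *CG18788* and *CG5783* (0.0571 each), *roX1 roX2* 2 that of *CG18788* (0.0545), and *roX1* 1, *roX1* 3, *roX1* 4 or *roX2* 4 that of *CG5783* (0.0568, 0.0557, 0.0520 and 0.0529).

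Several shared genes differed in size between the mutants. *CG15599* on the X chromosome was at 7.64, 6.46 and 6.96 CPM in wildtype, at 3.55 to 4.59 CPM in the *roX1* mutant and at 3.12 to 4.33 CPM in the *roX2* mutant, while the 3 libraries of the double mutant held 5 counts in all. Its log2 fold changes in the single mutants, -0.82 and -0.86, did not pass there (adjusted p = 0.263 and 0.433). *CG43133*, also on the X chromosome, had 3 counts in the double mutant and means of 0.293 and 0.261 CPM in the single mutants, against 1.17 CPM in wildtype, and was not called without wildtype 1 (adjusted p = 0.0699). *PH4alphaMP*, a prolyl hydroxylase subunit gene, was highest in the *roX1* mutant at 8.32 to 27.1 CPM, against 3.84 to 4.71 CPM in the *roX2* mutant, 3.01 to 3.38 CPM in the double mutant and 1.75 to 2.56 CPM in wildtype. Its call was not kept without any 1 of 8 libraries, with adjusted p of 0.0741, 0.106 and 0.132 without wildtype 1, 3 and 4, 0.0568 without *roX1* 1, 0.0516 without *roX2* 2 and 0.0530, 0.0608 and 0.0585 without *roX1 roX2* 2, 3 and 4. *CG6470* was highest in the double mutant with 0.878 CPM, against 0.555, 0.279 and 0.169 CPM in the *roX1* mutant, the *roX2* mutant and wildtype, and was not called without wildtype 1 (adjusted p = 0.0567). *CG9360*, named after its values were seen, was at 38.4 and 23.4 CPM in the *roX2* and double mutants and at 1.31 CPM in the *roX1* mutant, against 1.57, 0.809 and 1.23 CPM in wildtype.

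A large part of the falls lay on the X chromosome. It carried 2142 of the genes tested (15.3%) and 45 of the shared genes, namely 37 of the 110 falls (33.6%) and 8 of the 36 rises. The median X-linked gene had a log2 fold change of -0.04 in the *roX1*, 0.02 in the *roX2* and -0.55 in the *roX1 roX2* mutant, so X-linked falls were measured against a general decrease in the double mutant. All 45 kept 1 sign in each mutant when the X median was taken off, but 12 of the 37 falls were no more than 0.5 below it on the log2 scale. The *roX1 roX2* mutant was the farthest from wildtype for 26 of the 37. Examples, named after their values were seen, are *CG4239* (130 CPM in wildtype, 108, 120 and 45.0 CPM in the *roX1*, *roX2* and *roX1 roX2* mutants) and *Vps4*, which codes for an ATPase of membrane sorting (102 CPM, against 81.6, 99.8 and 59.3 CPM). The major autosome arms held between 0.806% and 0.885% shared genes, the X chromosome 2.10%.

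Of the lists, 20 had no shared gene. Since 1.05% of all genes tested were shared, a short list such as that of the 5 MSL genes would mostly hold 0. The 20 lists without any were those of glutathione S-transferases, UDP-glycosyltransferases, odorant-binding proteins, gut proteases, cuticle proteins, Osiris genes, heat shock genes, ribosomal proteins, the mitochondrial genome, the MSL complex, sex, *kl-2* and *WDY* of the Y chromosome, and markers of gut, muscle, neurons, glia, hemocytes, salivary gland, trachea and testis. They held 465 entries, of which 49 had an unadjusted p under 0.05 with edgeR and 11, from 7 lists, were shared with DESeq2. Of 53 genes on the list of immune peptides, *BomS4* was the shared member (1.89%, against 1.05% of all genes tested), although 16 had an unadjusted p under 0.05. The list was taken by symbol and also holds *PGRP* genes and *Dronc*, *Droj2* and *LysRS*, which do not code for immune peptides. Markers of the larval tissues were present in every genotype, with means for *Mhc* of muscle of 4395 to 8348 CPM, for *elav* of neurons of 113 to 138 CPM and for *Jon65Aiii* of gut of 453 to 1019 CPM. Such means hide a wide spread for gut. Its markers summed to between 580 and 2577 CPM in the wildtype libraries and between 506 and 1506 CPM in the mutant libraries. The 4 muscle markers were lowest in the double mutant (*Act57B* 5835 CPM against 9636 to 11100 CPM in the others). The mean log2 fold change of these 4 lay between -0.43 and -0.35 and none passed, although 3 had an unadjusted p under 0.05. The part of muscle RNA in the falls was not tested. In whole larvae, fewer cells of a type and less RNA per cell cannot be told apart. Markers of the third larval instar (*Lsp1alpha*, *Lsp1beta*, *Lsp1gamma*, *Fbp1*, *Fbp2* and *Sgs4*) were under 0.4 CPM in every genotype. *Sgs5*, on the salivary gland list, had a mean of 6.06 CPM in the double mutant. Its means were 0.066, 0 and 0.0055 CPM in wildtype and the *roX1* and *roX2* mutants, and it did not pass (adjusted p = 0.771). *Sgs3*, *Sgs7* and *Sgs8* had means of at most 0.196 CPM.

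Genes named in the genotypes did not separate wildtype from all mutants. *v*, which codes for tryptophan dioxygenase in the eye pigment pathway, was at 18.5 to 26.6 CPM in wildtype and 18.5 to 50.4 CPM in the *roX1* mutant, but at 0.263 to 0.311 CPM in the *roX2* mutant and 0.0861 to 0.120 CPM in the double mutant. *w*, the gene of the eye pigment transporter, was at 16.4 to 34.3 CPM in the *roX2* mutant, whose label has no *w1118*, and under 1.4 CPM in all other libraries. *y*, a pigmentation gene, was at 4.77 to 6.30 CPM in wildtype and 1.83 to 48.2 CPM in the mutants, and its 3 highest values were those of *roX1* 1, *roX1* 2 and *roX2* 4. The annotation used has no gene named *cho*.

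Wildtype was not the genotype with the most genes of its own. By the same rule applied to each genotype against the other 3, 146 genes set wildtype apart, 114 the *roX2* mutant, 1461 the *roX1* mutant and 2136 the *roX1 roX2* mutant. Of these, 30.8%, 49.1%, 20.3% and 40.2% lay on the X chromosome. The 4 comparisons use the same 13 libraries and the *roX1* mutant has a library more than the others, so the counts are given side by side without a test. The count for the *roX2* mutant ranged from 46 (without *roX1 roX2* 3) to 289 (without *roX2* 3), which includes the count for wildtype.

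**Figure D4:**
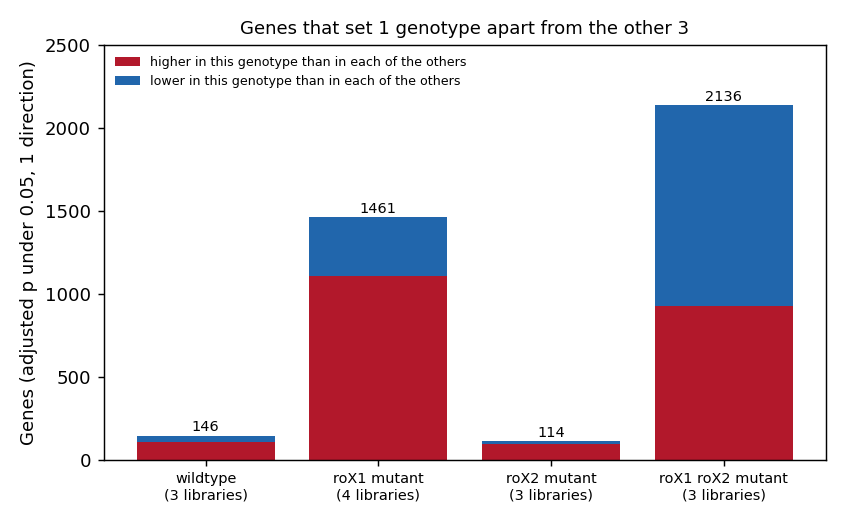
Number of genes (vertical axis) that set each genotype apart from the other 3 in 1 direction at an adjusted p under 0.05, with genes higher in that genotype in red and lower in blue. Wildtype with 146 genes and the *roX2* mutant with 114 genes are far below the *roX1* mutant with 1461 and the *roX1 roX2* mutant with 2136.

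The threshold cut through genes of similar values. Just inside it were *CG5697* (mean log2 fold change 1.18) and *parvin* (-0.43), both with an adjusted p of 0.0499, and just outside it were *CG31810* (-1.47, adjusted p = 0.0507) and *lncRNA:CR44743* (-5.21, adjusted p = 0.0527). Of the 36 shared genes named by rule, 12 were called in each of the 22 alternatives in which single genes were refitted. These were the falls *lncRNA:CR44660*, *lncRNA:CR45284*, *BomS4*, *Crg-1*, *dpr1*, *CG10353*, *CG6125* and *hzg* and the rises *Cyp4d1*, *swaPsi*, *CG2269* and *Cyp28a5*.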

How the data were processed

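RNA of pooled first instar male larvae was sequenced as 13 libraries. The authors mapped reads with STAR 2.5.1b to genome release 6.09 and deposited raw counts per gene from HTSeq 0.6.1 with default settings, which ignore reads in several places or genes. Summary lines (10.3% to 23.8% of each library) were left out. The library kit does not mark strand. Symbols and positions are from Ensembl BDGP6.54, of the same assembly release, where 247 of 17476 identifiers were not found.

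edgeR 4.0.16 (R 4.3.3) was run on genes with at least 20 summed counts (TMM, quasi-likelihood test, 4 genotypes as groups, two-sided, Benjamini-Hochberg adjustment over all genes). The contrast was the mean of the 3 mutant genotypes minus wildtype, and SE is the fold change divided by the square root of F. CPM are TMM-normalized. Count intervals are exact (scipy 1.17.1, 95%) and cover counting error only. The methods call the libraries of a genotype biological replicates, each from its own sample of larvae. No source says whether they came from separate crosses, so p-values measure the spread between these samples of larvae.

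The members, gene lists and alternatives were chosen with earlier results of these data known. Genes were named by rule, as the 12 largest rises and 12 largest falls among shared genes without overlap and with a mean of at least 50 counts in a genotype, those called in each mutant, members of runs of neighbours (0 were found), genes of the genotype labels, and the 3 members of each list with the smallest p. Alternatives were DESeq2 1.42.0, other size factors, other count filters, a replicate block, a fit of 2 groups, fits without the double mutant or the 4 libraries apart on the first component, removal of X and autosome medians, an adjusted p under 0.01, and each library left out. The computations were tested on simulated counts. Figures used matplotlib 3.10.9.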

Additional observations from a re-analysis of the deposited data

Results flagged for a closer look

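Among the 36 shared genes named by rule, 16 differed between the mutants in the size of their fold change from wildtype, by the edgeR test among the 3 mutant genotypes. Falls of unequal size were those of *CG15599* (adjusted p = 7.4e-05), the ABC transporter gene FBgn0010549 (0.00143), *antr* (0.00293), *CG6125* (0.00325), *Gr8a* (0.00407), *CR43276* (0.00454), *CG10353* (0.00718), *Ir51a* (0.0196) and *CG43133* (0.0213). Rises of unequal size were those of *PH4alphaMP* (adjusted p = 0.0014), *Cyp4p2* (0.00251), *mthl8* (0.00487), *Cyp4d1* (0.00582), *CG6470* (0.00692), *TTLL6B* (0.0184) and *Cyp28a5* (0.042). The *roX1* mutant, with 4 libraries, was the group in which a library could be held against the others. There *roX1* 2 stood apart for *CG11300*, with 65.8 CPM against 8.69 to 16.5 CPM (gap over range 0.863), and *roX1* 3 for *hzg*, with 69.6 CPM against 79.5 to 81.3 CPM (0.843). Both exceed Dixon's 95% critical value for 4 samples, which chance passes in about 1 of 20 groups, and 36 genes were examined.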

How the results depend on the processing

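The count of shared genes (146) was 476 with DESeq2 (173 higher and 303 lower, 145 of the 146 among them), 73 with the replicate block (63 kept), 20 with a fit of 2 groups (19 kept), 35 without the double mutant (32 kept) and 36 at an adjusted p under 0.01. It ranged from 51 (without wildtype 4) to 215 (without *roX2* 3) with a library left out. Genes differing in each mutant (16) were 72 with DESeq2, 30 among the 9 libraries of the low side of the first component (11 kept), and 9 to 19 with a library left out. Shared genes without overlap (105) were 196 with DESeq2, 52 with the block, 20 with 2 groups, 35 without the double mutant, 176 on the low side and 46 to 162 with a library left out. Genes differing among the mutants (2430) were 4070 with DESeq2 and 826 to 3497 with a library left out. Genes apart in the *roX1* mutant (1461) were 2279 with DESeq2 and 672 to 2071 with a library left out, and those in the double mutant (2136) were 3237 and 753 to 3136. Those in the *roX2* mutant (114) were 454 with DESeq2, 243 with TMM over the major autosome arms, 44 with the block, 323 on the low side and 46 to 289 with a library left out. Of 16 same-numbered pairs of libraries, 9 deviated together with a correlation over 0.1 (-0.72 to 0.72). The correlation was 0.71, 0.60 and 0.72 for wildtype with *roX1* 1, 3 and 4, but -0.72 to 0.36 for *roX1* with *roX2*. No source says what the numbers stand for, and the main fit did not pair the libraries by them. Whether the lower count with the block reflects such pairing was not tested. Over the 36 named genes and 22 refits, 791 values gave 639 kept calls, 152 lost calls and 0 reversed signs. For the changes among settings the cause was not tested. Depth limited genes near 0, such as *Fbp1*, for which the filter on mean counts left no value.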

Other observations

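Some shared genes lay close to each other. Of 144 with a position, 23 had another within 20000 bp, against 1109 of 13645 other genes tested (8.13%), as a description without a test. Some pairs moved together. *Ubi-p5E*, a polyubiquitin gene, and its neighbour *CG11700* (2390 bp apart on the X chromosome) were both lower in the mutants, with means for *Ubi-p5E* of 314 CPM in wildtype and 91.6, 245 and 197 CPM in the *roX1*, *roX2* and *roX1 roX2* mutants. Both hold ubiquitin repeats, and reads that fit both equally were not counted, which may affect their levels. The genes *CG11893* and *CG31370* (11098 bp apart on 3R) were lower as well, while *CG11892* and *CG31300* from the same stretch did not pass (adjusted p = 0.773 and 0.618). Other pairs moved apart. *pnt*, an ETS transcription factor gene of receptor tyrosine kinase signalling, was lower (71.7, 56.2 and 54.5 CPM in wildtype, 30.5 to 45.5 CPM in the mutants), and *wam*, 2180 bp from it, was higher. *GILT3* was lower, and *SPE*, which codes for the protease that activates the ligand of Toll, 7834 bp from it, was higher, with 6.85 to 8.27 CPM in the *roX1* mutant and 0.866 to 2.53 CPM in the other mutants against 0.896 to 1.39 CPM in wildtype.

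The Y chromosome, which sons of every genotype had from the same kind of father, held 1 shared gene of 21 tested. This is 4.76%, against 1.05% of all genes tested. The other Y genes were mostly near 0. The median log2 fold change of the 21 was -2.79 in the *roX1*, -0.06 in the *roX2* and -0.85 in the *roX1 roX2* mutant. *Su(Ste):CR42407*, which was not shared, had a mean of 1.67 CPM in wildtype. Its means in the *roX1*, *roX2* and *roX1 roX2* mutants were 0.0504, 1.83 and 0.478 CPM. The cause of these differences was not tested. The shared gene, *FDY*, is a copy of an autosomal stretch that holds *vig2*. Reads that fit both equally were not counted, which may affect its level. *FDY* was at 5.87, 3.57 and 4.52 CPM in wildtype, 0.632 to 0.837 CPM in the *roX1* mutant, 1.81 to 2.48 CPM in the *roX2* mutant and 1.26 to 1.47 CPM in the double mutant (mean log2 fold change -1.86, SE 0.16, adjusted p = 1.3e-04). The mean of the mutants passed without 1 sign in each mutant for 10 genes, among them *Ugt35B1*, with log2 fold changes of 0.68, -4.26 and -0.73 in the *roX1*, *roX2* and *roX1 roX2* mutants, *sordd2*, with -0.19, 3.13 and -0.41, and *lncRNA:CR40469*, with -3.71, 0.96 and -3.70. The genes of this section were named after their values were seen.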
